A study of Mus musculus with 5 samples.

Results

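*Rbm45* and 9 genes of the Elavl, Nova and Rbfox families of neuronal RNA-binding proteins were described in mouse sympathetic neurons with and without *Hif1a*. *Rbm45* was chosen on its difference between the genotypes in these same libraries, so its values are given as a description with no test. *Elavl1*, *Elavl2*, *Elavl3*, *Elavl4*, *Nova1*, *Nova2*, *Rbfox1*, *Rbfox2* and *Rbfox3* were chosen by family. All 10 genes were found among the 20224 genes of the count table, and all 10 were among the 15032 genes that passed the filter on low counts.

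The libraries came from sympathetic ganglia of embryos at E14.5, which the study gives as non-diabetic, that is, from pregnancies without maternal diabetes. Each library held 100 sorted cells, with 2 control libraries (numbered 5 and 6) and 3 *Hif1aCKO* libraries (numbered 3, 4 and 5). The sorted *Hif1aCKO* cells were Hif1a loxP/loxP; Isl1Cre; tdTomatoAi14 and the sorted control cells were Hif1a loxP/+; Isl1Cre; tdTomatoAi14, and both carried the Prph-eGFP reporter. The general description of the study's controls names embryos without Isl1-Cre, but tdTomato in the Ai14 allele needs Cre, and cells were gated on eGFP and tdTomato together. In both groups, therefore, 1 *Isl1* allele is the Cre knock-in, and on this genotype the controls would lack 1 functional *Hif1a* copy in the Cre-expressing cells. The floxed allele was on a mixed C57BL/6J;C57BL/6N background and Isl1-Cre on FVB. Cre under *Isl1* also acts in other *Isl1* lineages, including sensory and motor neurons. Each library is called a biological sample, and the numbers given for the dissected embryos of each genotype equal the numbers of libraries.

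*Hif1a*, the targeted gene, had 2086 and 1584 normalized counts in controls 5 and 6 and 2747, 1757 and 2135 in *Hif1aCKO* 3, 4 and 5. A normalized count is the deposited count scaled to a common library size. The deletion removes exon 2 alone, which counts over the whole gene cannot show, so these values do not check the labels. Total counts were 8254211 to 9700887 per library. Of 12 markers of sympathetic neurons, all 12 were tested, and their summed level was 6699 to 8295 CPM (counts relative to library size) in the controls and 5755 to 6047 CPM in *Hif1aCKO*. In *Hif1aCKO* 3, markers of Schwann cell precursors stood apart, with 926 raw counts of *Fabp7* against 0 to 9 elsewhere, 50 of *Erbb3* against 0 to 2 and 8 of *Sox10* against 0 or 1. *Ngfr* of the same list was lowest there, at 58 raw counts against 133 to 409, and 3 of the 8 genes of the list had no row. Summed markers of mesenchyme were 0.318 to 1.19 CPM in the controls and 1.10 to 2.78 CPM in *Hif1aCKO*, those of endothelium 7.98 to 10.1 and 6.23 to 7.72 CPM, and the erythroid marker with a row (*Alas2*) 0.953 to 1.59 and 1.72 to 3.54 CPM. Sensory neuron markers summed to 129 to 169 and 147 to 164 CPM, nearly all of it from *Ntrk3* (399 to 864 raw counts) and *Prrxl1* (492 to 891), with *Pou4f1* at 2 to 5 raw counts, and chromaffin cell markers, most of which sympathetic neurons also express, to 1843 to 1995 and 1893 to 2515 CPM. Within the chromaffin list the estimates lay apart and none was called, with log2 fold changes of 1.04 for *Cartpt*, -1.69 for *Chgb* and -1.91 for *Pnmt*. The groups did not overlap for these, 1 higher and 2 lower of 4 tested, beside 12.9% of all genes in each direction. In bulk samples such as these, fewer cells of a type and less RNA per cell cannot be told apart.

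RNA-binding proteins set how a neuron splices, stabilizes, transports and translates its transcripts. The Elavl (Hu) proteins bind AU- and U-rich elements and mostly stabilize mRNAs. *Elavl1* (HuR) is made in nearly all cells, whereas *Elavl2*, *Elavl3* and *Elavl4* (HuB, HuC and HuD) are the classical neuronal members. Nova and Rbfox proteins bind short motifs near alternative exons and set neuronal splicing patterns, and *Rbfox3* encodes NeuN, an antigen used to mark mature neurons. *Rbm45* encodes a protein with RNA recognition motifs that was described in the developing nervous system and that is found in inclusions in amyotrophic lateral sclerosis (ALS) and frontotemporal lobar degeneration (FTLD). HIF-1α, the product of *Hif1a*, is the oxygen-sensitive subunit of a transcription factor that binds DNA at a short core motif.

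*Rbm45* (ENSMUSG00000042369) lies at chr2:76369984-76383768 on the plus strand of GRCm38, with 1898 bases of exon, and shares no exonic base with another annotated gene. Its promoter is shown because *Rbm45* is the gene of the set that differed most and HIF-1 is a DNA-binding factor. The core motif was searched as ACGTG or GCGTG on both strands, over 250 bases before to 50 bases after each RefSeq start on GRCm38.p6. The 250 bases before the start, chr2:76369734-76369983, plus strand, hold no match. A stretch inside the first exon, chr2:76370007-76370033, plus strand, holds 1 match, written in capitals, at positions 37 to 41 counted from the first transcribed base.

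Rbm45 upstream: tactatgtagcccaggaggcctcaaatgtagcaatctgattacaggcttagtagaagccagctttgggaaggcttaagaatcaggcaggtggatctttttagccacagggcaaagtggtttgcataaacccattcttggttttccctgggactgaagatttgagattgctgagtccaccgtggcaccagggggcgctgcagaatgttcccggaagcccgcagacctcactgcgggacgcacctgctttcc

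Rbm45 first exon: gagctgcttaccgGCGTGgggcgagac

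The motif occurred in 14380 of 32851 RefSeq promoters of the same length (43.8%), so a match is common. Of the 10 genes, 9 had a promoter entry (*Rbfox2* was not matched), with 18 annotated starts in all. A match was found at 10 of the 18 starts, in 6 genes (*Rbm45*, *Elavl1*, *Elavl2*, *Elavl3*, *Elavl4* and *Rbfox1*). The *Rbm45* window had a GC content of 55.3%, against a median of 52.7% over all promoters. No binding was measured, and a match is only a description of the letters in the window.

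*Rbm45* was low in both control libraries and higher in every *Hif1aCKO* library. The raw counts were 16 and 39 in controls 5 and 6, and 283, 174 and 242 in *Hif1aCKO* 3, 4 and 5. After normalization these were 16.7 and 36.2 against 303, 174 and 235. The groups did not overlap, and the lowest *Hif1aCKO* library (number 4) was 4.80 times the highest control (number 6). The means were 26.4 ± 13.8 (SD, n = 2) and 238 ± 64.9 (SD, n = 3), a ratio of 8.99, and the fitted log2 fold change was 3.15 with a standard error (SE) of 0.47. Within the groups, the controls differed 2.17-fold and the *Hif1aCKO* libraries 1.75-fold. Among the 10842 genes with a mean normalized count of at least 50, this was the 2nd largest absolute log2 fold change, and it was the 176th of all 15032 tested. Because *Rbm45* was chosen for this difference, that rank describes the choice.

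**Figure D1:**
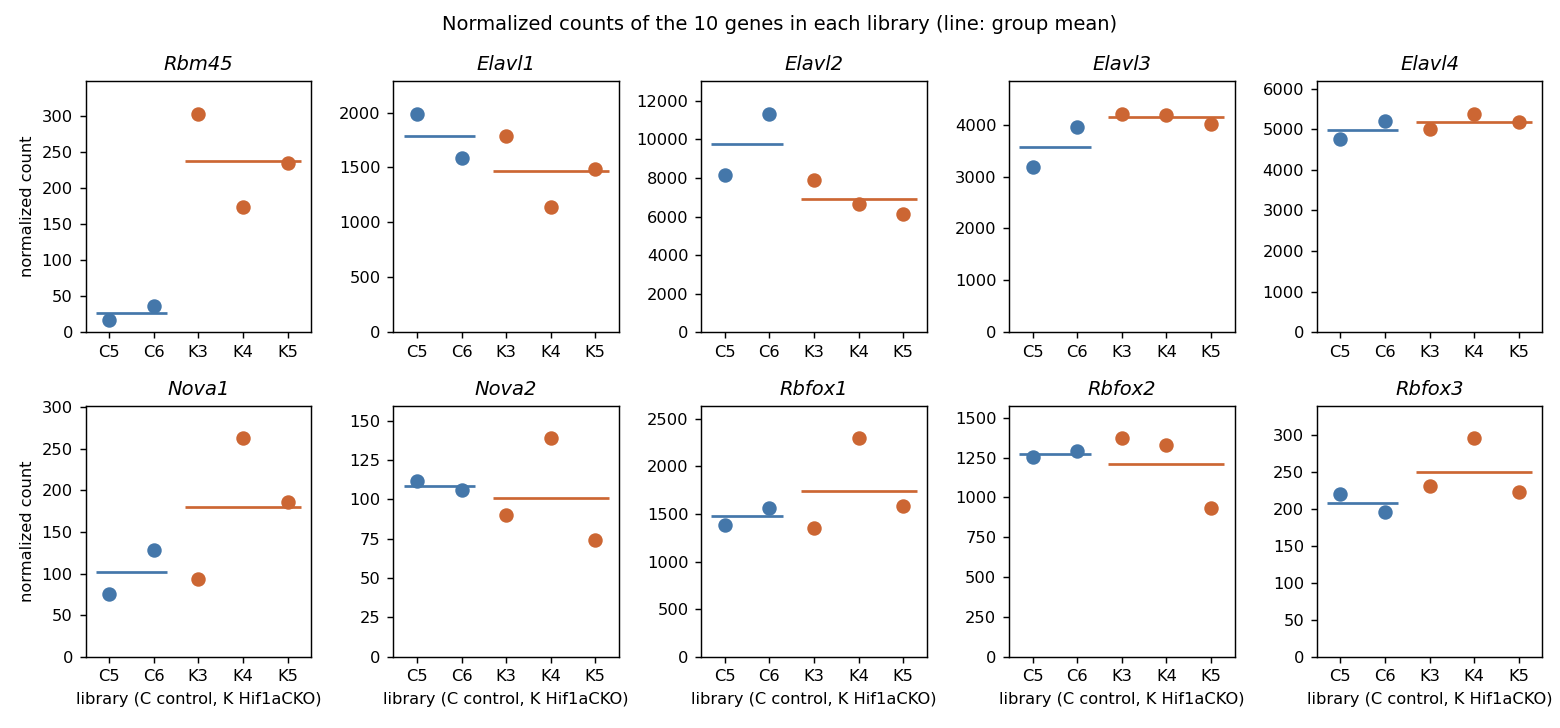
Normalized counts (vertical axis, from 0) of each of the 10 genes in control libraries 5 and 6 (C5 and C6, blue) and *Hif1aCKO* libraries 3, 4 and 5 (K3, K4 and K5, orange), with a line at each group mean. *Rbm45* sits at 16.7 and 36.2 in the controls and at 174 to 303 in *Hif1aCKO*, whereas *Elavl4* lies between 4759 and 5378 in all libraries.

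With any single library omitted, the log2 fold change was between 2.71 (without control 5) and 3.82 (without control 6), or 6.54-fold to 14.1-fold. Both ends of this range came from omitting a control. Without *Hif1aCKO* 3, the library with Schwann cell precursor transcripts and the highest *Rbm45*, the log2 fold change was 2.94. Other normalizations, filters and tools gave 3.15 to 3.19.

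Beside *Rbm45*, several marker lists had summed levels that lay apart between the genotypes. All 15 genes of the G2/M list, which mark dividing cells, had a higher estimate in *Hif1aCKO*. Of these, 13 had an unadjusted p under 0.05 (edgeR, 7.67% of all genes) and none passed after adjustment in that edgeR fit. The study, with another test (DESeq2), had reported part of this list as upregulated in these same libraries, so these counts are no independent result. The summed level of the list was 2817 to 3392 CPM in the controls and 4460 to 5463 CPM in *Hif1aCKO*. *Plk1*, a mitotic kinase, had 751 and 834 normalized counts in the controls and 1534, 1620 and 1389 in *Hif1aCKO*. Its log2 fold change was 0.93 (SE 0.16, adjusted p = 0.471, edgeR). The study's own qRT-PCR used microdissected sympathetic chains from diabetic and non-diabetic pregnancies. There, other genes of this list were higher in *Hif1aCKO*, whereas *Plk1* was raised by maternal diabetes and not by *Hif1a* deletion. The 4 motor neuron markers with a row, of 7 on the list, summed to 81.0 to 110 CPM in the controls and 40.3 to 61.7 CPM in *Hif1aCKO*. None was called, and the groups did not overlap for 1 of the 4, beside 25.7% of all genes. The 4 were *Lhx4*, *Slc18a3*, *Chat* and *Slc5a7*, and *Mnx1*, *Olig2* and *Lhx3* had no row. With these absent, the sum does not show that motor neurons were present. The part of these lists in the *Rbm45* result was not tested.

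The other 9 genes were tested in the fit over all 15032 genes (edgeR quasi-likelihood test, Benjamini-Hochberg adjustment). Calls needed 3 criteria at once: adjusted p under 0.05, log2 fold change beyond 0.3 in either direction, and normalized counts averaging 50 or more. None of the 9 was called, nor was any gene in the table (0.00% of 15032), and the smallest adjusted p of all genes was 0.446. At an unadjusted p under 0.05, 1 of the 9 passed (*Elavl2*), against 7.67% of all genes. DESeq2 called 60 genes, 30 in each direction, and 0 of the 9. The estimates of the 9 ran from -0.50 to 0.82 with a median of 0.06, 5 above and 4 below zero, beside a median of 0.01 and quartiles of -0.27 and 0.32 over all genes. Their adjusted p-values were 0.621 to 0.971. The groups did not overlap for 3 of the 9, 2 higher and 1 lower in *Hif1aCKO*. Over all genes, 25.7% did not overlap, 12.9% higher and 12.9% lower, so this count is near the background.

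**Figure D2:**
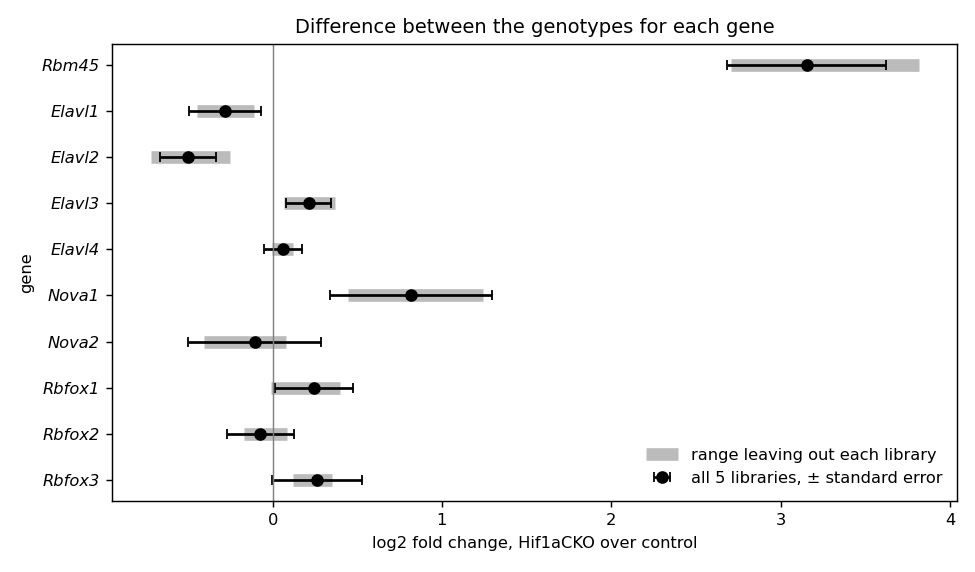
Log2 fold change of *Hif1aCKO* over control for each gene (horizontal axis), with points and bars for the estimate ± SE from all 5 libraries and grey bands for the range when each library was left out. *Rbm45* stands at 3.15, and the other 9 lie between -0.50 and 0.82.

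The neuronal Elavl genes were the most abundant of the set. *Elavl2* (chr4:91250763-91400785, minus strand) had 8160 and 11332 normalized counts in the controls and 7895, 6655 and 6130 in *Hif1aCKO*. Every *Hif1aCKO* library lay below both controls, but *Hif1aCKO* 3 was close to control 5. The log2 fold change was -0.50 (SE 0.16, unadjusted p = 0.0161, adjusted p = 0.621, edgeR), and it was -0.25 to -0.72 when each library was left out. *Elavl3* (chr9:22015005-22052023, minus strand) lay the other way, with 3192 and 3949 in the controls and 4210, 4193 and 4013 in *Hif1aCKO*. Its *Hif1aCKO* libraries were close together and just above the higher control, with a log2 fold change of 0.21 (SE 0.13, adjusted p = 0.735, edgeR).

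*Elavl4* (chr4:110203722-110351909, minus strand), whose product stabilizes mRNAs of axon growth, had the smallest SE of the set. There were 4759 and 5195 normalized counts in the controls and 5006, 5378 and 5177 in *Hif1aCKO*, which overlap. The log2 fold change was 0.06 (SE 0.11, adjusted p = 0.941, edgeR). The broadly made *Elavl1* (chr8:4285382-4325413, minus strand) had 1988 and 1587 in the controls and 1786, 1143 and 1485 in *Hif1aCKO*. The groups overlapped, and the log2 fold change was -0.28 (SE 0.21, adjusted p = 0.781, edgeR). No source used here states that reads were counted by strand, and *Elavl1* shares 1.97% of its exonic bases with *Ccl25* on the opposite strand and *Elavl3* 3.72% with *Gm49318* on its own strand.

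Within the Elavl family, levels were compared per kilobase of exon as RPKM, the count per kilobase scaled to library size. *Elavl2*, *Elavl3* and *Elavl4* together made up 92.4% and 95.0% of the family in the controls and 93.5%, 95.6% and 94.1% in *Hif1aCKO*. The means were 93.7% ± 1.84 (SD, n = 2) and 94.4% ± 1.08 (SD, n = 3), a difference of 0.72 points (exact permutation test, two-sided, p = 0.6; adjusted over 3 shares, 0.6). With 2 libraries against 3 there are 10 arrangements, and the smallest p possible is 0.1. The direction turned without control 5 (-0.57 points).

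The make-up inside the neuronal members was examined after their values were seen and is given with no test. The share of *Elavl2* was 38.9% and 44.6% in the controls and 35.7%, 31.8% and 30.4% in *Hif1aCKO*. The share of *Elavl3* was 18.4% and 18.8% in the controls and 22.9%, 24.2% and 24.0% in *Hif1aCKO*. Neither set of shares overlapped between the groups, and neither did the normalized counts of either gene given above. Over all genes tested, the counts of 25.7% did not overlap, so such a separation is common. The share of *Elavl4* was 35.1% and 31.6% against 34.9%, 39.7% and 39.6%, which overlap narrowly. Shares of 1 family sum to 100%, so a lower share of *Elavl2* goes with higher shares of others.

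**Figure D3:**
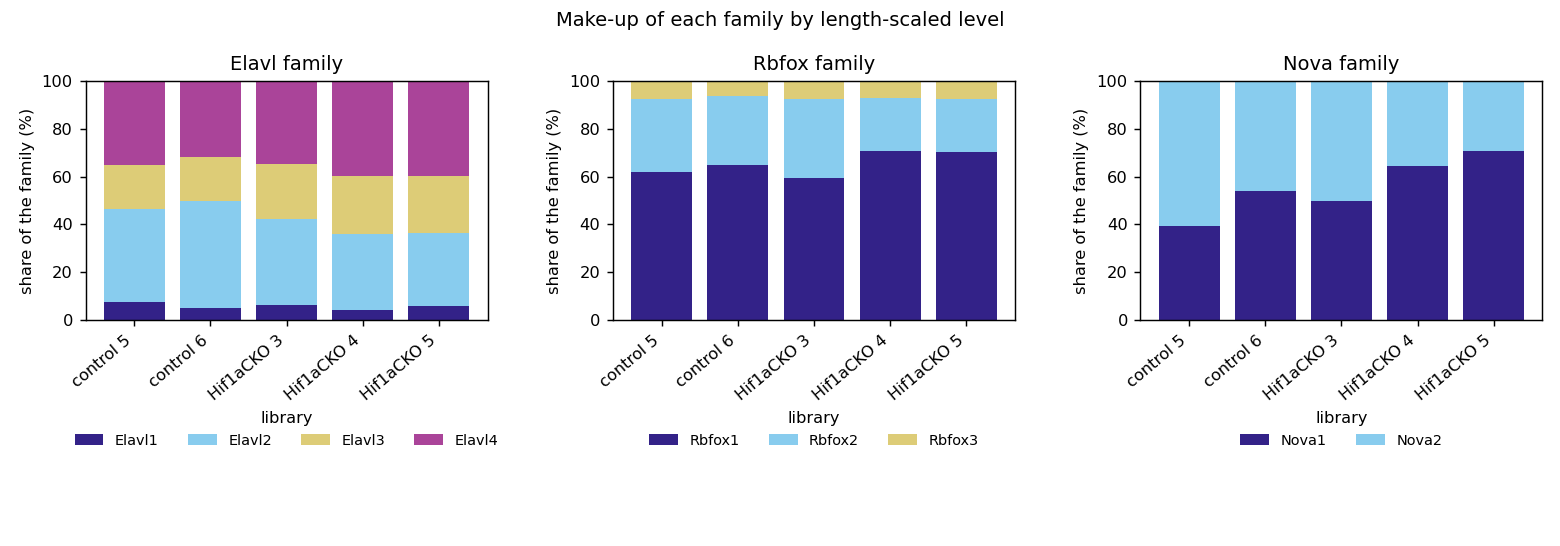
Share of each gene in its family by RPKM (vertical axis, in %, stacked to 100) in each of the 5 libraries, for the Elavl, Rbfox and Nova families. The *Elavl2* segment is 38.9% and 44.6% in the controls and 30.4% to 35.7% in *Hif1aCKO*, and the *Nova1* segment is 39.5% and 53.9% in the controls and 49.8% to 70.6% in *Hif1aCKO*.

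The Nova genes were low, at 74.0 to 263 normalized counts per library. *Nova1* (chr12:46694517-46818929, minus strand) had 76.0 and 129 normalized counts in the controls and 93.3, 263 and 186 in *Hif1aCKO*. *Hif1aCKO* 3 lay between the controls and the other 2 above them, with a log2 fold change of 0.82 (SE 0.48, adjusted p = 0.719, edgeR). *Nova2* (chr7:18925888-18965319, plus strand) had 111 and 106 in the controls and 90.1, 139 and 74.0 in *Hif1aCKO*, on both sides of the controls. Its log2 fold change was -0.11 (SE 0.39, adjusted p = 0.971, edgeR) and turned to 0.08 without *Hif1aCKO* 5. The value of *Nova2* is uncertain, since 31.7% of its exonic sequence overlaps *Gm26821* on the other strand, and *Nova1* shares 3.54% with *Gm33869* on the same strand.

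*Nova1* made up 39.5% and 53.9% of the Nova pair by RPKM in the controls and 49.8%, 64.4% and 70.6% in *Hif1aCKO*. The means were 46.7% ± 10.1 (SD, n = 2) and 61.6% ± 10.7 (SD, n = 3), a difference of 14.9 points (exact permutation test, two-sided, p = 0.3; adjusted over 3 shares, 0.6). The groups overlapped, and the difference was 7.76 to 22.1 points when each library was left out.

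Among the Rbfox genes, *Rbfox1* (chr16:5885355-7411526, plus strand) had 1382 and 1564 normalized counts in the controls and 1350, 2293 and 1585 in *Hif1aCKO*. *Hif1aCKO* 4 was the only library far from the rest. The log2 fold change was 0.24 (SE 0.23, adjusted p = 0.842, edgeR), and it was -0.0067 without *Hif1aCKO* 4. *Rbfox2* (chr15:77078990-77307004, minus strand), which is also made outside the nervous system, had 1255 and 1292 in the controls and 1370, 1331 and 932 in *Hif1aCKO*. *Hif1aCKO* 5 was low and the other 2 were above the controls, with a log2 fold change of -0.07 (SE 0.20, adjusted p = 0.959, edgeR) that turned to 0.09 without that library.

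*Rbfox3* (chr11:118489762-118911597, minus strand) had 221 and 196 normalized counts in the controls and 231, 296 and 223 in *Hif1aCKO*. The groups did not overlap, but control 5 and *Hif1aCKO* 5 were nearly equal. The log2 fold change was 0.26 (SE 0.26, adjusted p = 0.856, edgeR). Its share of the Rbfox family by RPKM was 6.82% ± 0.959 (SD, n = 2) in the controls and 7.36% ± 0.405 (SD, n = 3) in *Hif1aCKO*, a difference of 0.54 points (exact permutation test, two-sided, p = 0.6; adjusted over 3 shares, 0.6) that was -0.14 points without control 6.

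Across the 10 genes, *Hif1aCKO* 4 held the highest normalized count for 5 and *Hif1aCKO* 3 for 3. Control 5 held the lowest for 4 and *Hif1aCKO* 5 for 3.

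In the controls, the order of the genes by level per length was *Elavl2* (134 ± 30.8 RPKM), *Elavl4* (106 ± 6.54), *Elavl3* (59.2 ± 8.88), *Rbfox1* (38.3 ± 3.34), *Elavl1* (19.7 ± 3.13), *Rbfox2* (17.9 ± 0.367), *Rbfox3* (4.09 ± 0.349), *Rbm45* (1.59 ± 0.831), *Nova2* (1.48 ± 0.0552) and *Nova1* (1.34 ± 0.489; SD, n = 2 throughout). The ranges of neighbours in this order overlapped for *Elavl1* and *Rbfox2*, for *Rbm45* and *Nova2* and for *Nova2* and *Nova1*. *Rbm45* was therefore among the lowest of the set in the controls, level with the Nova genes.

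In *Hif1aCKO*, the order was *Elavl4* (110 ± 3.95 RPKM), *Elavl2* (94.8 ± 12.5), *Elavl3* (68.7 ± 1.81), *Rbfox1* (45.3 ± 12.7), *Rbfox2* (17.0 ± 3.40), *Elavl1* (16.2 ± 3.55), *Rbm45* (14.3 ± 3.91), *Rbfox3* (4.91 ± 0.785), *Nova1* (2.36 ± 1.11) and *Nova2* (1.38 ± 0.461; SD, n = 3 throughout). The ranges of *Elavl4* and *Elavl2*, of *Rbfox2* and *Elavl1*, of *Elavl1* and *Rbm45* and of *Nova1* and *Nova2* overlapped. *Rbm45* thus had 1.004 and 2.18 RPKM in the controls and 18.3, 10.5 and 14.2 RPKM in *Hif1aCKO*, where its range reached that of *Elavl1*. With the length of the longest transcript in place of all exonic bases, the place of 3 genes changed in the controls and of 4 in *Hif1aCKO*. In the controls, *Nova1* (1.64 ± 0.598 RPKM, SD, n = 2) then came before *Rbm45* and *Nova2*, with overlapping ranges. In *Hif1aCKO*, *Elavl2* (188 ± 24.7 RPKM, SD, n = 3) then came before *Elavl4* (143 ± 5.13), and their ranges no longer overlapped. *Elavl1* (29.3 ± 6.40 RPKM, SD, n = 3) came before *Rbfox2* (20.0 ± 4.01), and the range of *Rbm45*, 10.5 to 18.3 RPKM, no longer reached that of *Elavl1*, 22.8 to 35.6 RPKM.

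Other genes named RBM, named like *Rbm45* for an RNA-binding motif, were not called in either direction. Of 41 on the list, 38 had a row, 37 were tested and none was called, with 21 estimates above and 16 below zero and a median log2 fold change of 0.10. The groups did not overlap for 7 higher and 2 lower, beside 12.9% of all genes in each direction. *Rbms3* had 3348 and 5558 normalized counts in the controls and 3018, 2273 and 2126 in *Hif1aCKO*, a log2 fold change of -0.85 (SE 0.23, adjusted p = 0.598, edgeR). *Rbm15b*, a part of the m6A methylation complex, had 247 and 373 against 405, 470 and 569 (log2 fold change 0.64). *Rbm27* stood at 0.63 and *Rbm28* at 0.52.

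Of 20 other splicing regulators, 18 were tested and none was called, 10 above and 8 below zero, with a median of 0.04. The groups did not overlap for 1 of the 18, fewer than the 25.7% of all genes. This was *Ptbp3*, a polypyrimidine tract binding protein, with 863 and 823 normalized counts in the controls and 639, 569 and 587 in *Hif1aCKO*. Its log2 fold change was -0.49 (SE 0.16, adjusted p = 0.618, edgeR). *Srrm3*, which promotes neuronal microexons, stood at 0.74, *Mbnl1* at 0.60 and *Khdrbs3* at 0.42, each with overlapping groups.

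All 23 genes of mRNA transport and translation were tested and none was called, with 10 above and 13 below zero and a median of -0.06. The groups did not overlap for 3 higher and 4 lower, beside 12.9% of all genes in each direction. *Lin28a*, which represses maturation of let-7 microRNAs and is high in early progenitors, had 33.3 and 46.4 normalized counts in the controls and 158, 101 and 87.6 in *Hif1aCKO*. Every *Hif1aCKO* library was above both controls, with a log2 fold change of 1.53 (SE 0.46, adjusted p = 0.598, edgeR). *Cpeb1*, a regulator of cytoplasmic polyadenylation, had 198 and 215 against 162, 41.9 and 130 (log2 fold change -0.89, SE 0.51). *Lin28b* stood at 0.62 and *Caprin2* at 0.57.

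The 9 RNA-binding proteins linked to ALS and FTLD, the diseases in which RBM45 inclusions are found, were all tested and none was called. Of these, 8 had estimates above zero and 1 below, with a median log2 fold change of 0.16 that was 0.017 without control 6 and 0.31 without control 5. The groups did not overlap for 3 of the 9, all higher in *Hif1aCKO*, beside 12.9% of all genes. *Atxn2* had 326 and 325 normalized counts in the controls and 367, 539 and 471 in *Hif1aCKO*, a log2 fold change of 0.50 (SE 0.23, adjusted p = 0.677, edgeR). *Hnrnpa2b1* stood at 0.22 and *Tardbp*, which encodes TDP-43, at 0.16.

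The 13 writers, readers and erasers of the m6A mark were also all tested with none called, 8 above and 5 below zero and a median of 0.02. The reader *Ythdf2* had 2113 and 2550 normalized counts in the controls and 1959, 1671 and 1794 in *Hif1aCKO* (log2 fold change -0.37, SE 0.15, adjusted p = 0.635, edgeR). The demethylase *Fto* stood at -0.38, *Alkbh5* at 0.49 and *Ythdf1* at 0.35.

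Of 7 mRNAs known to be bound by neuronal Elavl proteins, all 7 were tested and none was called, with 6 below and 1 above zero and a median log2 fold change of -0.32. The groups did not overlap for 3 of the 7, all lower in *Hif1aCKO*, beside 12.9% of all genes. *Ache*, acetylcholinesterase, had 206 and 259 normalized counts in the controls and 165, 128 and 103 in *Hif1aCKO*, a log2 fold change of -0.82 (SE 0.31, adjusted p = 0.621, edgeR). *Bdnf* stood at -0.40, *Mapt* at -0.39 and *Cdkn1a* at 0.50. The 12 pan-neuronal genes had a median of -0.12, with 9 below and 3 above zero and none called. Their groups did not overlap for 3 lower and 1 higher. Among the 12 sympathetic neuron markers, this held for 6 lower and 2 higher, so such lower values were not particular to the Elavl-bound mRNAs. *Tubb3* had 19774 and 21205 normalized counts in the controls and 14996, 15168 and 16899 in *Hif1aCKO* (log2 fold change -0.39, SE 0.09, adjusted p = 0.586, edgeR), whereas *Snap25* stood at 0.62, *Syt1* at -0.71 and *Stmn2* at -0.30.

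**Figure D4:**
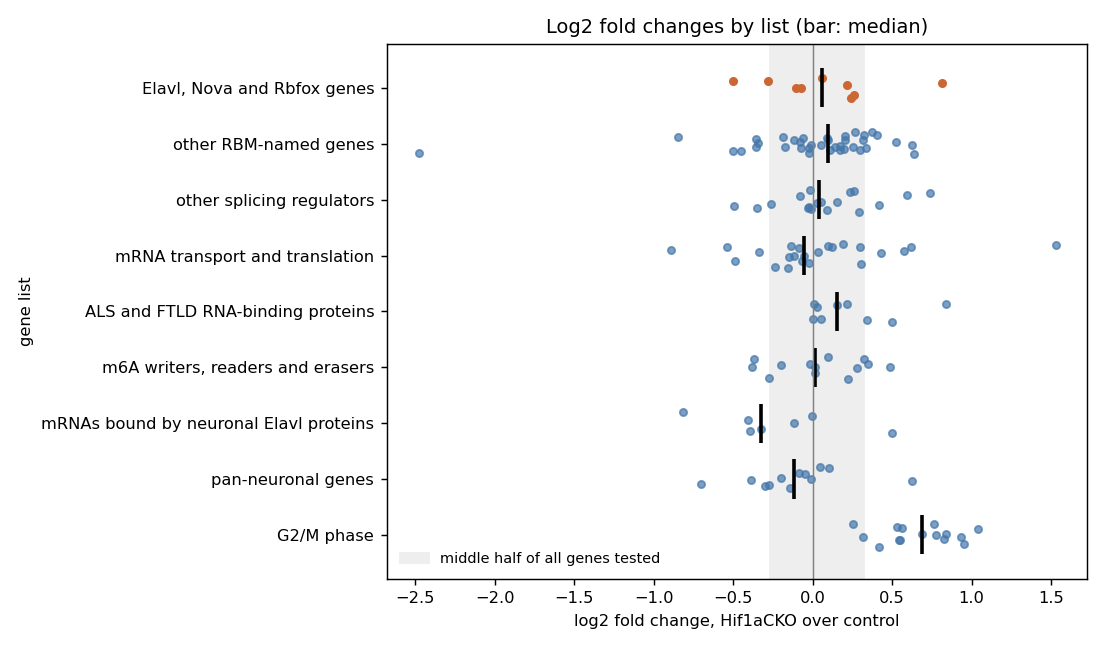
Log2 fold change of *Hif1aCKO* over control (horizontal axis) for every tested gene of each list (rows), with a bar at the list's median and a grey band from -0.27 to 0.32, the quartiles of all 15032 genes. The medians of the RNA-binding protein lists lie between -0.06 and 0.16 and that of the G2/M list at 0.69, and no point is a gene called by edgeR.

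The genes next to *Rbm45* on chromosome 2 were examined to see whether the difference extended along the chromosome. The 5 tested genes before it were *Hnrnpa3*, *Nfe2l2*, *Agps*, *Ttc30b* and *Ttc30a1*, and the 5 after it were *Osbpl6*, *Prkra*, *Fkbp7*, *Plekha3* and *Ttn*, at gaps of 22.7 to 701 kb. None was called, none had an unadjusted p under 0.05 (edgeR), and the groups overlapped for all 10. Over all genes, 25.7% did not overlap. Their log2 fold changes ran from -0.39 to 0.59 with a median of 0.05, 6 above and 4 below zero. The nearest, *Osbpl6*, had 203 and 120 normalized counts in the controls and 212, 213 and 180 in *Hif1aCKO*, a log2 fold change of 0.32 (SE 0.32, adjusted p = 0.854, edgeR).

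**Figure D5:**
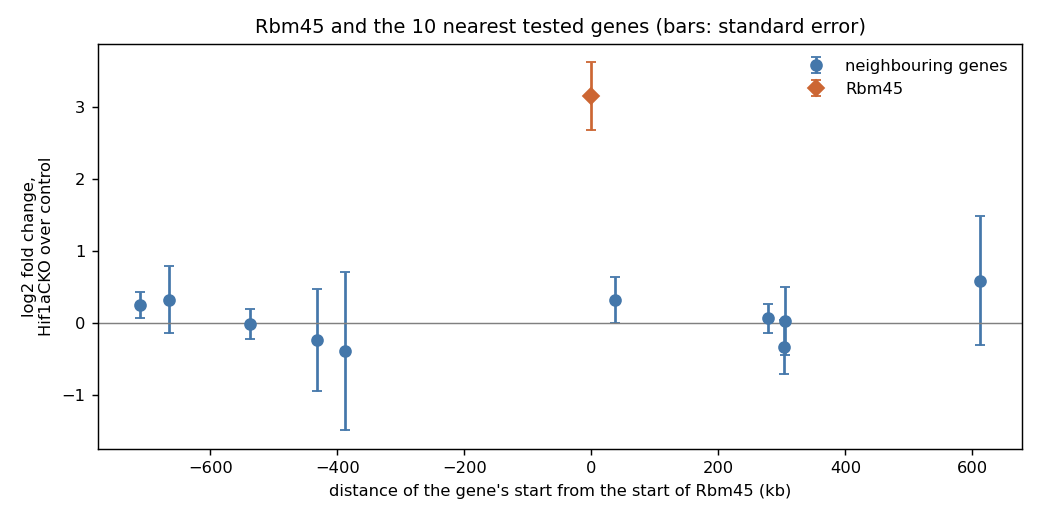
Log2 fold change ± SE (vertical axis) of *Rbm45* (diamond) and of the 5 tested genes on either side (circles), by distance of each gene's start from that of *Rbm45* in kb. The neighbours lie between -0.39 and 0.59, and *Rbm45* lies at 3.15.

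The genes with the profile most like that of *Rbm45* were found by the root mean square difference of mean-centred log2 CPM over the 5 libraries, among 10841 other genes with a mean normalized count of at least 50. The closest were *Gm19409* (0.54), *Tnfrsf19* (0.68), *Yars2* (0.71), *Stxbp5l* (0.74) and *Usp44* (0.75), against a median of 1.62 over all genes compared. Closeness to a profile picked for its difference fixes the direction of these genes. *Yars2*, the mitochondrial tyrosyl-tRNA synthetase, had 32.3 and 44.5 normalized counts in the controls and 164, 139 and 117 in *Hif1aCKO*, and its log2 fold change of 1.86 was below the 3.15 of *Rbm45*. *Tnfrsf19*, a member of the tumor necrosis factor receptor family, had 6.25 and 20.4 in the controls and 50.4, 112 and 95.4 in *Hif1aCKO*.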

How the data were processed

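The deposited file holds raw read counts per Ensembl gene for the 5 libraries. Per the labels and the study's methods, the authors made libraries with a single-cell low input kit, trimmed reads (cutadapt 1.18), removed ribosomal reads, aligned to GRCm38 (STAR 2.7.0c) and counted reads per gene without multi-mapping reads; Bowtie 1.2.2 is also in the submitters' processing notes. Symbols, coordinates and exon lengths came from GENCODE on GRCm38, which held 20195 of the 20224 genes.

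Counts were tested with edgeR 4.0.16 (R 4.3.3; TMM, filterByExpr, quasi-likelihood test, Benjamini-Hochberg over 15032 genes), genotype alone in the model. The SE is the absolute log2 fold change divided by the square root of F. The 10 genes, the lists and the tests were chosen with earlier results of these data known. From each list, at most 4 genes with a mean normalized count of at least 50 and the largest absolute log2 fold change were named, except a few genes that are not reported here. Log2 CPM used a prior count of 2. Shares were compared by exact permutation over libraries. Alternatives were other normalizations, filters and thresholds, DESeq2 1.42.0, limma-voom (limma 3.58.1), other lengths and leaving out each library. The fits were tested on simulated data. Total counts of 8254211 to 9700887 leave genes with few counts, such as *Rbm45* in the controls, with coarse values.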

Additional observations from a re-analysis of the deposited data

How the results depend on the processing

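None of the 9 Elavl, Nova and Rbfox genes was called under any alternative run. The number of genes called in the table was 0 by edgeR and limma-voom under the other normalizations, filters and thresholds, 60 by DESeq2, and 0 to 4 when each library was left out, the 4 without control 5. *Rbm45*, whose direction its choice fixed, was at 2.71 to 3.82. Leaving out 1 library turned the sign of small estimates: *Elavl4* ranged from -0.0047 (without control 5) to 0.12, *Nova2* from -0.41 to 0.077 and *Rbfox2* from -0.17 to 0.086 (both highest without *Hif1aCKO* 5), and *Rbfox1* from -0.0067 (without *Hif1aCKO* 4) to 0.40. Under the same omissions the difference in the neuronal Elavl share was -0.57 to 2.02 points and in the *Rbfox3* share -0.14 to 1.22 points. The median of the other splicing regulators was -0.048 to 0.16, of mRNA transport and translation -0.11 to 0.11, of ALS and FTLD proteins 0.017 to 0.31, of other RBM-named genes 0.012 to 0.14, of m6A genes -0.031 to 0.072, of pan-neuronal genes -0.22 to -0.043, and of mRNAs bound by neuronal Elavl proteins -0.39 to -0.16. With the longest transcript as length, 3 genes in the controls and 4 in *Hif1aCKO* changed place in the order of levels. The cause was not tested. Where a single control was left, it was assumed to vary like the other libraries. No label pairs a control library with a *Hif1aCKO* library, so no paired analysis was made. The replicate number 5 in both groups is not said to mark a pair. With 2 controls, the share tests cannot reach 0.05, and the gene tests had a biological coefficient of variation of 0.384.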
